A study of Rattus with 12 samples.

Results

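Vegfa and 9 other genes that respond to low oxygen were followed through co-cultures of rat brain cells exposed to fentanyl. The 9 others are Apln, Adm, Slc2a1, Hk2, Pdk1, Bnip3, Ndrg1, Ankrd37 and Egln3. The genes were chosen by name as hypoxia-responsive genes, and the rule itself uses no measured value. The choice was made with earlier results of these data known, so the 10 genes are not an unselected set. All 10 are among the 17337 gene symbols of the count table, and all 10 were among the 12271 genes kept by the filter on low counts. The study names Vegfa among genes downregulated at the high dose. It labels both Vegfa and Apln in a heatmap of genes picked from these same cultures, so their direction here is not independent evidence.

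When oxygen is scarce, the prolyl hydroxylases that mark hypoxia-inducible factor (HIF) alpha subunits for destruction lose activity, and the stabilized subunits switch on genes for blood vessel growth, glucose uptake and glycolysis. In the brain, astrocytes, neurons and oligodendrocyte precursor cells (OPCs) all use this pathway, and astrocytes are a well known source of vascular endothelial growth factor. Several targets, such as Vegfa and Slc2a1, also respond to other signals, including growth factors and the supply of glucose.

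The cultures were primary cortical neurons, astrocytes and OPCs of Sprague Dawley rats, grown together and bought as cells from commercial suppliers. RNA was taken after 4 days without fentanyl (untreated), with 0.01 μM fentanyl (low dose) or with 10 μM fentanyl (high dose), a synthetic opioid that acts mainly on the mu opioid receptor. There were 4 cultures per dose, with the untreated cultures lettered A, G, M and P, the low dose cultures B, H, N and Q and the high dose cultures C, I, O and R. Neither the labels nor the methods say which animals or preparations a culture came from, so p-values measure the spread between these cultures only. Such cultures hold no blood vessels and no circulating oxygen supply, and the oxygen in them was not among the measured values.

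The total count per culture was 12059872 to 17023909 in the untreated, 12907388 to 16512387 in the low dose and 15102785 to 24813893 in the high dose condition. Levels are given as CPM, the counts of a gene relative to the library total, scaled by the TMM method, and are compared between cultures for the same gene, not between genes. Cultures with consecutive letters resembled each other, and the sets ABC, GHI, MNO and PQR are therefore shown as well, although nothing states that the letters mark a pairing or a preparation. Untreated culture G stood apart, with a summed level of 10 neuron markers of 242 CPM against 3067 to 4471 CPM in the other 11 cultures. The defining markers of neurons, astrocytes, OPCs and oligodendrocytes were otherwise detected throughout, while 4 of 9 endothelial markers (Cdh5, Cldn5, Tie1 and Emcn) had no count in some cultures. In these bulk samples, fewer cells of a type and less RNA per cell cannot be told apart.

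Among the secreted factors, Vegfa, the principal growth factor of blood vessels, varied widely between cultures of the same dose. Its level was 498, 66.5, 197 and 87.3 CPM in untreated cultures A, G, M and P. In low dose cultures B, H, N and Q it was 503, 204, 194 and 71.3 CPM, and in high dose cultures C, I, O and R it was 374, 142, 128 and 64.6 CPM. The 3 doses overlapped, and cultures A, B and C were the highest of their dose. The dose means were 212 ± 199, 243 ± 184 and 177 ± 135 CPM (SD, n = 4 each) in the untreated, low dose and high dose conditions.

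Apln, the precursor of the vasoactive peptide apelin, spread less by letter set. It was 54.1, 5.58, 56.0 and 36.1 CPM in A, G, M and P, then 56.3, 52.6, 25.6 and 32.3 CPM in B, H, N and Q, and 38.6, 36.6, 16.2 and 22.2 CPM in C, I, O and R. Culture G was far below every other culture, and the high dose culture was below the low dose culture in each of the 4 sets. Adm, the precursor of the vasodilator adrenomedullin, was the steadiest of the 10 genes. Its level was 72.9, 55.5, 71.9 and 80.0 CPM in A, G, M and P, with 72.1, 84.0, 87.7 and 80.8 CPM in B, H, N and Q and 64.0, 73.0, 69.6 and 71.2 CPM in C, I, O and R. The high and low dose cultures overlapped by a narrow margin, through cultures I and B.

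The genes of glucose handling were likewise highest in cultures A, B and C. Slc2a1 encodes the glucose transporter GLUT1, which carries glucose across the blood-brain barrier and into astrocytes. It was 386, 59.5, 138 and 92.9 CPM in A, G, M and P, then 321, 148, 162 and 89.3 CPM in B, H, N and Q, and 245, 116, 120 and 88.0 CPM in C, I, O and R. Hk2, the inducible hexokinase that traps glucose in the cell, was 129, 25.9, 24.5 and 8.40 CPM in A, G, M and P, then 89.4, 23.1, 44.1 and 7.22 CPM in B, H, N and Q, and 104.8, 24.0, 24.2 and 9.01 CPM in C, I, O and R. Pdk1, a kinase that keeps pyruvate out of the mitochondrion, was 111.1, 17.2, 32.4 and 19.2 CPM in A, G, M and P, with 104.7, 49.5, 45.1 and 19.8 CPM in B, H, N and Q and 101.2, 39.7, 29.8 and 18.9 CPM in C, I, O and R. In all 3 genes cultures A, B and C lay above every other culture, and the doses overlapped.

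Bnip3, a mitochondrial protein that promotes the removal of mitochondria, was 963, 88.9, 385 and 172 CPM in A, G, M and P, then 805, 539, 442 and 177 CPM in B, H, N and Q, and 826, 388, 325 and 168 CPM in C, I, O and R. Ndrg1, a stress-responsive gene also used by myelinating glia, was 128, 51.5, 40.7 and 14.5 CPM in A, G, M and P, then 127.6, 48.4, 40.7 and 14.7 CPM in B, H, N and Q, and 118, 58.2, 37.6 and 16.1 CPM in C, I, O and R. Within a letter set its level hardly moved with dose. Ankrd37, a small ankyrin repeat protein, was the least counted of the 10, with 6 to 181 counts per culture. It was 10.7, 0.389, 4.59 and 0.748 CPM in A, G, M and P, then 9.23, 7.84, 5.55 and 0.963 CPM in B, H, N and Q, and 8.47, 5.36, 4.45 and 0.992 CPM in C, I, O and R. Egln3 encodes PHD3, one of the prolyl hydroxylases that turn the pathway off and itself a target of it. Its level was 155, 22.1, 65.3 and 26.6 CPM in A, G, M and P, with 141, 78.7, 78.1 and 30.5 CPM in B, H, N and Q and 131, 64.9, 38.4 and 27.7 CPM in C, I, O and R.

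**Figure D1:**
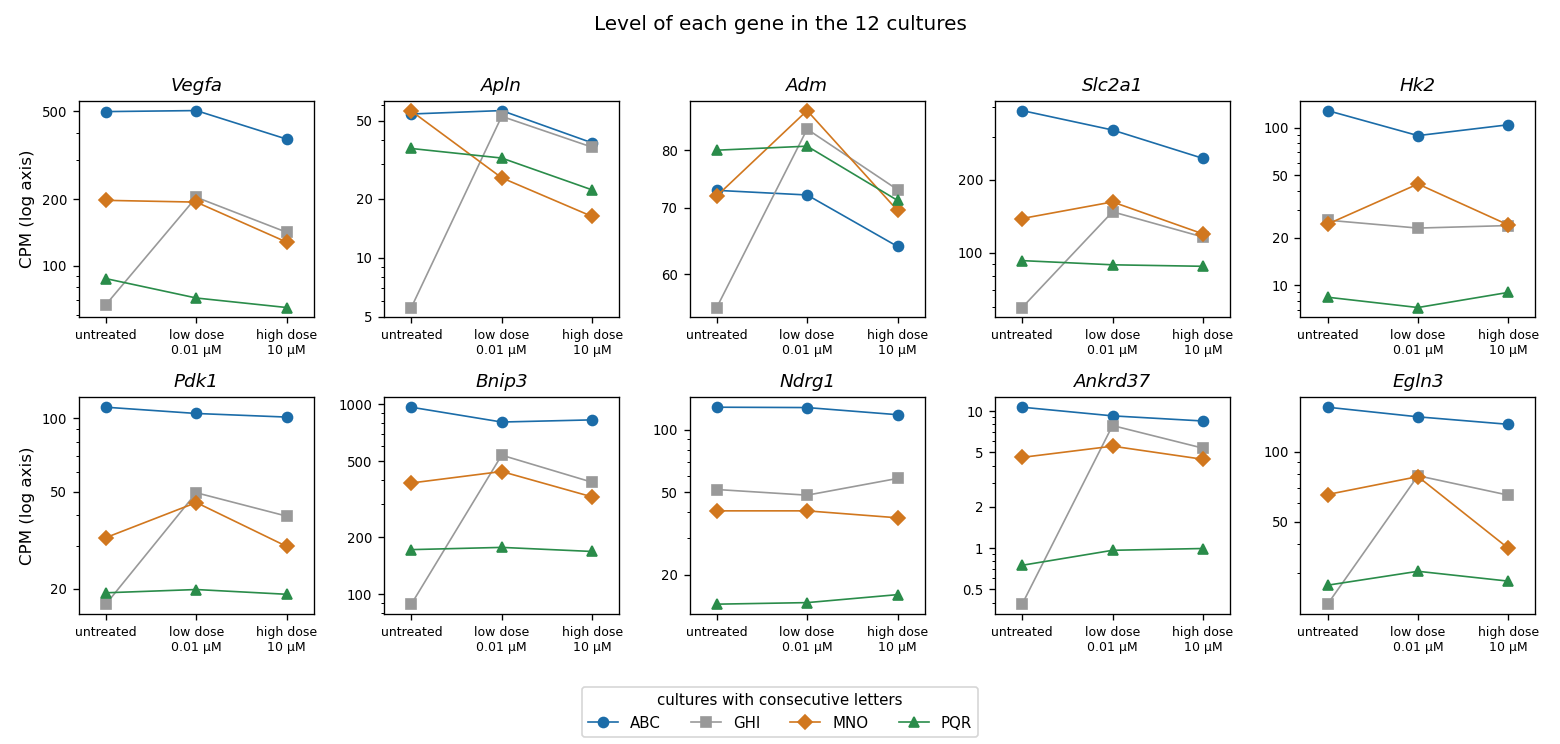
CPM (log axis, with its own range per panel) of the 10 genes in the 12 cultures, by dose, with lines joining cultures of consecutive letters. In 8 of the 10 panels the ABC line lies above MNO and MNO above PQR at every dose, and the GHI line drops in untreated culture G in all panels but Hk2 and Ndrg1.

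Culture G was low in most but not all of these genes. The mean of cultures H and I was 17.0 times the level of G for Ankrd37, 8.0 times for Apln, 5.22 times for Bnip3, 3.26 times for Egln3 and 2.59 times for Vegfa. Ndrg1 and Hk2 were not lower in G, at 1.03 and 0.907 times. The difference of G from H and I had a median of -1.33 on the log2(CPM + 1) scale over the 10 genes and of 0.02 over all genes tested. The level of 8 astrocyte markers summed to 7798 CPM in G against 2572 and 3611 CPM in I and H, and that of 8 fibroblast and mural markers to 1750 CPM against 63.9 and 77.4 CPM. The 9 endothelial markers summed to 69.8 CPM in G against 16.5 and 11.1 CPM in I and H. The oligodendrocyte markers summed to 7254 CPM in G against 22110 and 25600 CPM in I and H. The OPC markers were at 1261 CPM against 899.5 and 896.6 CPM, and the microglia markers at 466 CPM against 339.5 and 241 CPM. The part of these marker differences in the low levels of culture G was not tested. Culture G is one of 4 untreated cultures and so enters both comparisons with the untreated condition.

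The letter sets differed far more than the doses. In cultures ABC the mean level was 458 ± 73.2 CPM for Vegfa (SD, n = 3), against 173 ± 39.2 CPM in MNO and 74.4 ± 11.7 CPM in PQR, with no overlap between these sets. Hk2 was 107.8 ± 19.9 CPM in ABC and 8.21 ± 0.911 CPM in PQR, a ratio of 13.1. The same ratio was 10.5 for Ankrd37, 8.25 for Ndrg1, 6.16 for Vegfa, 5.47 for Pdk1, 5.04 for Egln3, 5.02 for Bnip3 and 3.52 for Slc2a1. For these 8 genes ABC exceeded MNO and MNO exceeded PQR in every culture. Apln had a ratio of 1.65, and Adm, at 0.901, overlapped between ABC and PQR.

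ABC and PQR were taken because they are the extremes for most of the 10 genes, so the ratios are a description. All cultures of ABC exceeded all of PQR in 9 of the 10 genes, where 33.4% of all genes tested did so and 33.6% lay below without overlap. On the log2(CPM + 1) scale the difference between these sets had a median of 2.35 over the 10 genes and of -0.0017 over all genes tested. A quasi-likelihood F test of edgeR across the 4 sets, with dose in the model, was added after the values had been seen. It passed an adjusted p of 0.05 for 7 of the 10 genes, against 27.9% of all genes tested. The adjusted p of edgeR was 1.07e-04 for Ndrg1, 0.0056 for Vegfa and 0.0515 for Ankrd37, while Apln (0.762) and Adm (0.662) did not pass. Without culture G it passed for 9 of the 10 genes, against 66.4% of all genes, with an adjusted p of edgeR of 1.33e-06 for Vegfa, 0.0163 for Apln and 0.177 for Adm.

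The split of the spread shows the same contrast between genes. Without culture G, the letter set took 94.5% of the sum of squares of log2(CPM + 1) for Vegfa and dose took 4.98%. For Ndrg1 these shares were 99.5% and 0.101%. Adm was the exception, with 28.0% for the letter set and 55.8% for dose, and Apln divided evenly, with 37.6% and 37.1%. With all 12 cultures these shares were 16.2% and 37.6% for Adm and 20.5% and 7.60% for Apln. The medians over the 10 genes were 95.6% for the letter set and 2.42% for dose, and over all genes tested 75.3% and 7.96%. With all 12 cultures, the medians for the letter set were 79.8% over the 10 genes and 55.7% over all genes.

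**Figure D2:**
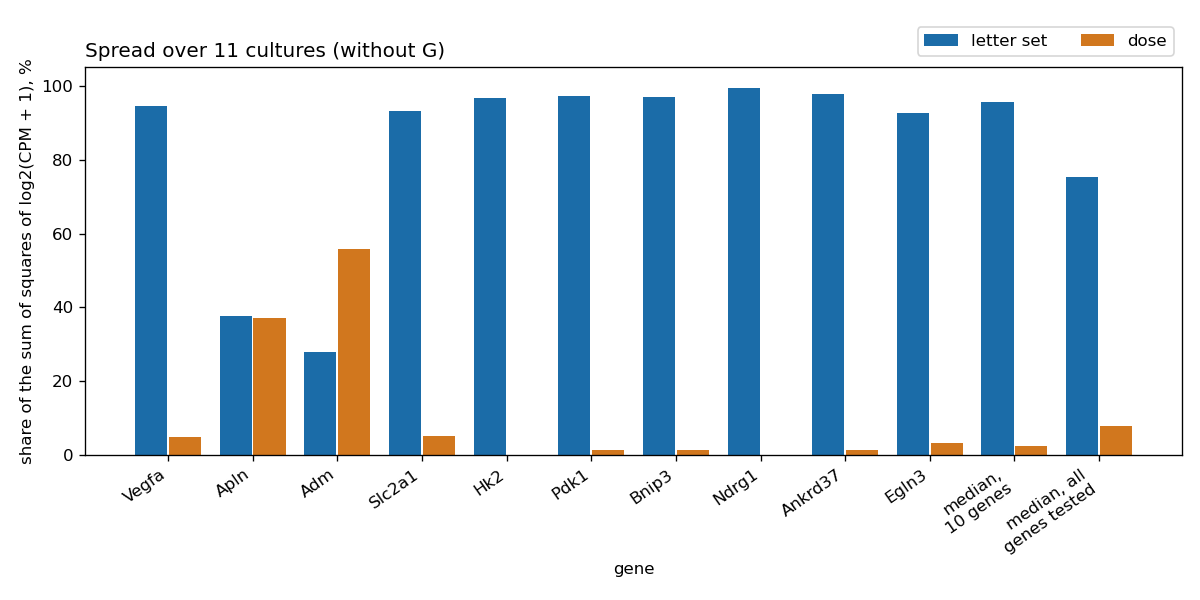
Share (%) of the sum of squares of log2(CPM + 1) over 11 cultures, without untreated culture G, that goes to the letter set (blue bars) and to dose (orange bars), for each gene and as medians. The letter set takes over 90% for 8 genes, while Adm has a larger share for dose (55.8%) than for the letter set (28.0%).

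Cell type markers also differed between the letter sets, though not all in the order of the 10 genes. Against PQR, the summed level of 7 microglia markers was higher in ABC (131 to 189 CPM against 14.2 to 20.2 CPM), with 6 of the 7 above without overlap and Cx3cr1 without a count in some cultures. The 6 oligodendrocyte markers were lower in ABC (2954 to 4476 CPM against 17820 to 21200 CPM), with 6 of 6 below without overlap, and the 5 OPC markers summed to 262 to 328 CPM against 1174 to 1185 CPM. The 8 astrocyte markers summed to 3023 to 4045 CPM in ABC and 7693 to 10780 CPM in PQR. The 10 neuron markers summed to 4026 to 4471 CPM and 3067 to 3684 CPM, and the 9 endothelial markers to 8.20 to 16.8 CPM and 4.66 to 6.82 CPM. The 8 fibroblast and mural markers summed to 91.1 to 118 CPM and 65.6 to 100.5 CPM. In MNO the microglia markers summed to 220 to 527 CPM and the astrocyte markers to 1949 to 3833 CPM. The fibroblast and mural markers summed to 291.5 to 3002 CPM there. The microglia, astrocyte, and fibroblast and mural markers did not lie between ABC and PQR in MNO, where most of the 10 genes did. The OPC markers did, at 710 to 958 CPM in MNO, but in the opposite order to most of the 10 genes. The oligodendrocyte markers summed to 9780 to 20790 CPM in MNO, above ABC and overlapping PQR. The neuron markers summed to 3257 to 3887 CPM there, below ABC and overlapping PQR. The endothelial markers, at 13.3 to 16.8 CPM in MNO, overlapped ABC and lay above PQR. The part of these differences in the levels of the hypoxia-responsive genes was not tested.

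The comparison of the high with the low dose asks whether these genes differed between the fentanyl concentrations. In the edgeR quasi-likelihood fit on all 12 cultures, with 1 factor of unwanted variation, none of the 10 genes was called, a call being an adjusted p under 0.05 together with a log2 fold change beyond 0.5 up or down, where 0% of the 12271 genes tested did. The study reported differentially expressed genes in every comparison at the same thresholds. The fit used here did not reproduce those calls. At an unadjusted p under 0.05, 1 of the 10 passed, where 1.17% of all genes did. This was Adm, whose log2 fold change was -0.22 with an SE of 0.10, and whose adjusted p was 1.0 by edgeR. Fitted log2 fold changes lay below 0 for 9 of the 10 genes, with a median of -0.25 against -0.01 over all genes. They were -0.51 (SE 0.32) for Apln and -0.44 (SE 0.69) for Vegfa, whose adjusted p was 1.0 in edgeR. A two-sided exact permutation test of the mean log2(CPM + 1) of Vegfa, which leaves out the model, gave a difference of -0.42 and p = 0.6, where the smallest possible p is 0.0286. The test ignores the letter sets, so its p-value takes in the wide spread between them and cannot decide on a smaller change within the sets.

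Within the letter sets the high dose culture was lower than the low dose culture for most of these genes. The difference in log2(CPM + 1) in ABC, GHI, MNO and PQR was -0.43, -0.52, -0.60 and -0.14 for Vegfa. For Apln it was -0.54, -0.51, -0.62 and -0.52, and for Adm -0.17, -0.20, -0.33 and -0.18. All 3 secreted factors were thus lower at the high dose in each of the 4 sets, Apln by nearly the same amount in each (mean -0.55 ± 0.05, SD, n = 4 sets).

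Slc2a1 (-0.39, -0.34, -0.44 and -0.02), Egln3 (-0.11, -0.27, -1.01 and -0.14) and Pdk1 (-0.05, -0.31, -0.58 and -0.06) were also lower in all 4 sets. Altogether 6 of the 10 genes were lower in all 4 sets and 0 were higher, where 11.1% and 11.7% of all genes tested were. Without set GHI the counts were again 6 and 0 of 10, against 15.6% and 16.5% of all genes. Bnip3 was lower in GHI, MNO and PQR (-0.47, -0.44 and -0.07) and level in ABC (0.04), and Hk2 was lower in MNO (-0.84) only. Ndrg1 was lower in ABC and MNO and higher in GHI (0.26) and PQR (0.12).

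With the letter set as a block and without culture G, the log2 fold change between the high and low dose was -0.43 (SE 0.08, adjusted p = 0.0859 by edgeR) for Vegfa and -0.55 (SE 0.19, adjusted p = 0.257) for Apln. With all 12 cultures in the block fit the values were -0.43 (SE 0.29) and -0.55 (SE 0.61), each with an adjusted p of 1.0 by edgeR. Without set GHI they were -0.40 (adjusted p = 0.331 by edgeR) and -0.57 (adjusted p = 0.558). No gene of the 10 was called in the block fit without culture G, against 0.113% of all genes tested. With 4 factors of unwanted variation, the adjusted p of edgeR was 0.0267 for Vegfa and 0.0293 for Slc2a1, and neither was called, since their log2 fold changes of -0.49 and -0.32 were within 0.5 of 0. In that fit 0.921% of all genes were called.

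The groups overlapped in every one of the 10 genes, where 0.522% of all genes were lower and 0.668% higher at the high dose without overlap. Without set GHI, Adm was lower without overlap, as were 1.6% of all genes, and no gene of the 10 was higher, where 1.84% were. Leaving out low dose culture B moved the fitted log2 fold change of Vegfa to 0.11, and leaving out high dose culture C moved it to -1.05. Both belong to the set with the highest levels, so either omission unbalances the sets between the doses.

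**Figure D3:**
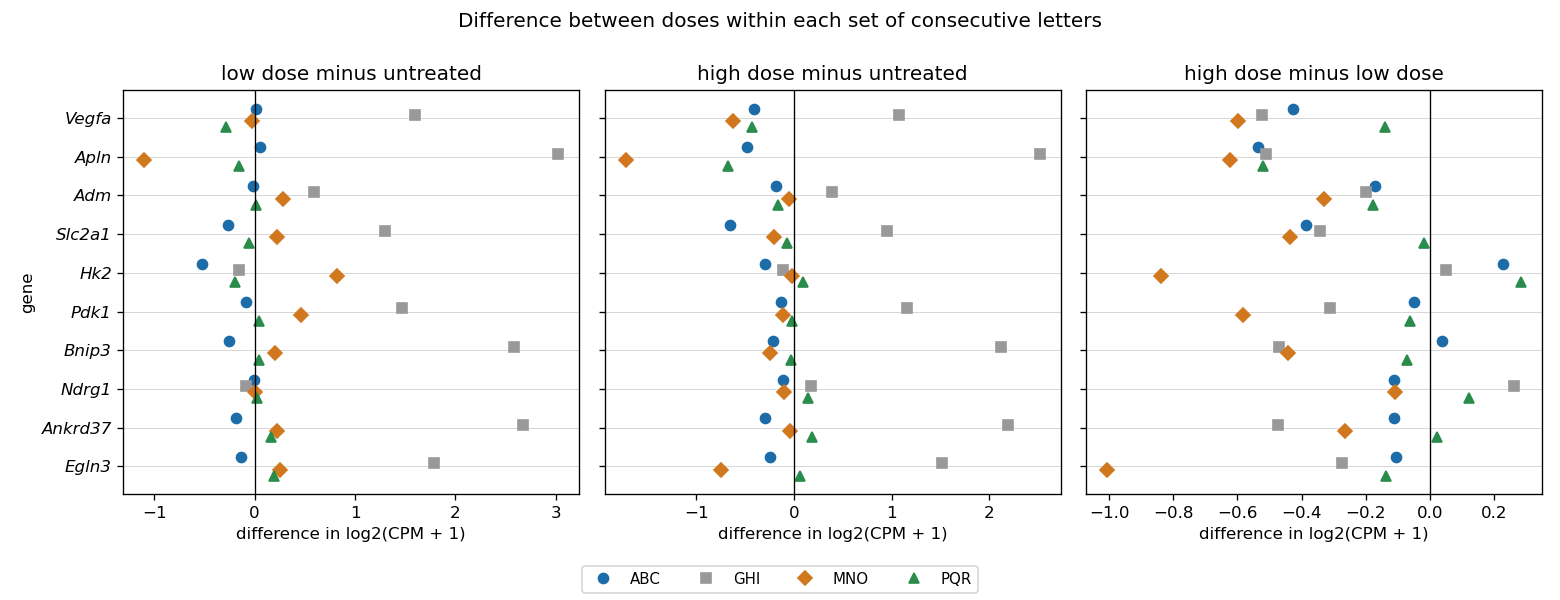
Difference in log2(CPM + 1) between doses within each set of consecutive letters (1 marker per set) for the 10 genes. In high dose minus low dose all 4 markers are below 0 for Vegfa, Apln, Adm, Slc2a1, Pdk1 and Egln3, and in the comparisons with the untreated condition the GHI marker of Vegfa lies apart, at 1.60 (low dose) and 1.08 (high dose).

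Marker levels also differed between the high and low dose. The mean log2(CPM + 1) of the astrocyte markers differed by 0.03, -0.18, -0.33 and -0.43 in ABC, GHI, MNO and PQR, and that of the neuron markers by 0.01, 0.14, 0.26 and 0.24. The fibroblast and mural markers differed by -0.09, -0.44, -1.68 and -0.14. In the same order the OPC markers differed by 0.10, 0.12, 0.18 and 0.12, the oligodendrocyte markers by -0.20, -0.25, 0.67 and -0.10, the microglia markers by 0.16, 0.56, -0.59 and -0.03 and the endothelial markers by -0.42, 0.29, 0.29 and 0.12. The part of these marker differences in the values of the 10 genes was not tested.

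The comparison of the high dose with the untreated condition shares its high dose cultures with the comparison above, and both comparisons with the untreated condition share their controls. None of the 10 genes was called, where 0% of all genes were, and none had an unadjusted p under 0.05, where 1.19% of all genes did. The log2 fold change was -0.38 (SE 0.71) for Vegfa, -0.54 (SE 0.33) for Apln, -0.35 (SE 0.52) for Slc2a1 and -0.06 (SE 0.10) for Adm, each with an adjusted p of 1.0 by edgeR. For 8 of the 10 genes the value lay below 0, with a median of -0.13 against 0.00 over all genes. The exact permutation test of Vegfa gave a difference of -0.10 in log2(CPM + 1), with p = 0.971.

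The set that holds culture G went against the other 3. In ABC and MNO all 10 genes were lower at the high dose than untreated, with medians of -0.27 and -0.16 on the log2(CPM + 1) scale, and in PQR 6 of 10 were, with a median of -0.03. In GHI 9 of 10 were higher, with a median of 1.12. Accordingly 0 of the 10 genes were lower in all 4 sets, where 5.22% of all genes were. Without set GHI 6 were lower in each of the 3 sets left (Vegfa, Apln, Adm, Slc2a1, Bnip3 and Pdk1), where 14.5% of all genes were, and 0 were higher, where 15.1% of all genes were. Vegfa differed by -0.41, -0.62 and -0.43 in ABC, MNO and PQR and Apln by -0.48, -1.73 and -0.68, against 1.08 and 2.52 in GHI. Marker levels differed as well, by -0.10, 4.46, 0.04 and 0.21 for neurons in ABC, GHI, MNO and PQR and by 0.35, -1.19, -1.02 and -0.33 for astrocytes. In that order the differences were 0.42, -0.63, -0.10 and 0.05 for OPCs, 0.37, 1.57, -0.40 and -0.23 for oligodendrocytes and 0.63, -0.15, 0.60 and 0.16 for microglia. They were 0.25, -1.12, 0.18 and 0.08 for endothelial cells and 0.18, -3.93, -0.02 and 0.39 for fibroblasts and mural cells, and their part in the values of the 10 genes was not tested.

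Among all the fits run, Vegfa was called once, with 4 factors of unwanted variation, where its log2 fold change was -0.56 with an SE of 0.09 and its adjusted p was 0.0396 by edgeR. That fit called 0.318% of all genes and no other of the 10. With the letter set as a block and without culture G the value was -0.51 (SE 0.08, adjusted p = 0.0832 by edgeR) for Vegfa and -0.99 (SE 0.21, adjusted p = 0.149) for Apln, and with culture G in the block fit it was -0.17 (SE 0.30, adjusted p = 0.892) for Vegfa. Without culture G and without the block it was -0.71 (SE 0.19) for Vegfa and -0.84 (SE 0.31) for Apln, each with an adjusted p of 1.0 by edgeR, and without culture A it was 0.60 for Vegfa. No gene of the 10 separated the doses without overlap, where 0.326% of all genes were lower and 0.359% higher. Without set GHI, Adm was lower without overlap, as were 1.35% of all genes, and no gene of the 10 was higher, where 1.59% were.

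**Figure D4:**
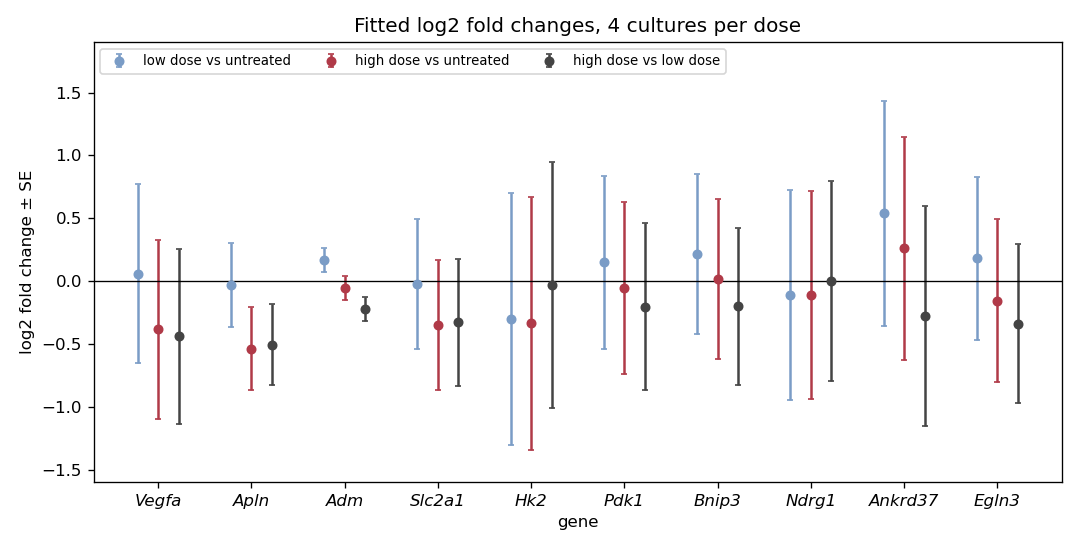
Fitted log2 fold change ± SE of the 10 genes in the 3 comparisons, 4 cultures per dose, from the edgeR fit with 1 factor of unwanted variation. The SE is 0.10 for Adm and 0.32 to 0.34 for Apln, and exceeds 0.5 for the other 8 genes, whose levels differ most between letter sets.

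No difference between the low dose and the untreated condition passed the test in these genes. None was called, where 0% of all genes were, and none had an unadjusted p under 0.05, where 0.742% of all genes did. The log2 fold change was 0.06 (SE 0.71) for Vegfa, -0.03 (SE 0.34) for Apln and 0.17 (SE 0.10) for Adm, each with an adjusted p of 1.0 by edgeR. For 4 of the 10 genes the value lay below 0, with a median of 0.10 against 0.01 over all genes. The exact permutation test of Vegfa gave a difference of 0.33, with p = 0.714, and all 3 of its tests had an adjusted p of 0.971 over the 3 comparisons. Without culture G the log2 fold change of Vegfa was -0.21 (SE 0.19, adjusted p = 0.994 by edgeR), and with the block and without G it was -0.08 (SE 0.08, adjusted p = 0.852). Without culture A it was 1.06. In GHI 8 of the 10 genes were higher at the low dose than untreated, with a median of 1.53, against medians of -0.11, 0.23 and 0.02 in ABC, MNO and PQR. The neuron markers differed by -0.12, 4.32, -0.22 and -0.02 in ABC, GHI, MNO and PQR, the astrocyte markers by 0.32, -1.01, -0.69 and 0.09 and the fibroblast and mural markers by 0.26, -3.49, 1.66 and 0.53, and their part was not tested. Within the sets, Vegfa differed by 0.02, 1.60, -0.03 and -0.29, and 0 of the 10 genes had the same direction in all 4 sets or in the 3 sets without GHI. Over all genes tested, 4.06% were higher and 5.28% lower in all 4 sets, and 13.9% and 13.7% in the 3 sets. No gene of the 10 separated these doses without overlap, where 0.196% of all genes were higher and 0.212% lower, nor did any without set GHI, where 1.15% were higher and 1.03% lower.

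The upstream part of the pathway did not share the order of the letter sets. Hif1a, the alpha subunit that drives the response to acute hypoxia, was 133 CPM in ABC and 213 CPM in PQR on average, and Epas1, which encodes HIF-2 alpha, was 247 and 380 CPM, each opposite to Vegfa. HIF protein is set mainly by its destruction, and protein was not measured here. Of 12 regulators tested, 2 were above without overlap in ABC (Arnt and Siah1) and 5 were below (Hif1a, Epas1, Arnt2, Vhl and Os9), where 33.4% and 33.6% of all genes were. Vhl, which recognizes the hydroxylated subunits, was 145 ± 9.69, 139 ± 11.3 and 126 ± 12.6 CPM (SD, n = 4) in the untreated, low dose and high dose conditions, and at the high dose against untreated its log2 fold change was -0.22 with an SE of 0.10 (adjusted p = 1.0 by edgeR). The prolyl hydroxylase gene Egln2 was 65.8 ± 7.43, 67.5 ± 5.38 and 66.8 ± 5.10 CPM. Egln1, a further prolyl hydroxylase gene of the list, was not found among the gene symbols and could not be examined. Hif1a was 198 ± 47.9, 183 ± 51.3 and 179 ± 39.9 CPM, Epas1 309 ± 113, 249 ± 99.5 and 244 ± 115 CPM, and no regulator was called in any comparison. Hif3a had 4 to 29 counts per culture.

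Most other targets of the pathway were also higher in ABC than in PQR. Of 21 genes of glucose transport and glycolysis, 18 were above without overlap in ABC against PQR, and 1, Pfkfb4, was below, where 33.4% and 33.6% of all genes were. Their median difference was 1.25 on the log2(CPM + 1) scale, and the lactate transporter gene Slc16a3 was 18.5 against 0.639 CPM. Of 34 other targets tested, 26 were above without overlap and 4 below (Plod1, Vldlr, Ankzf1 and Nos2), with a median of 1.05, among them Car9, a carbonic anhydrase induced by hypoxia (8.03 against 0.391 CPM). Nos2, the inducible nitric oxide synthase, went the other way, at 0.197 against 10.2 CPM. Lox and P4ha2 of this list are also labelled in the study's heatmaps of genes picked from these cultures. Apart from the subunits, Vhl, prolyl hydroxylases and receptors, the list genes named in these comparisons were picked after their values had been seen.

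**Figure D5:**
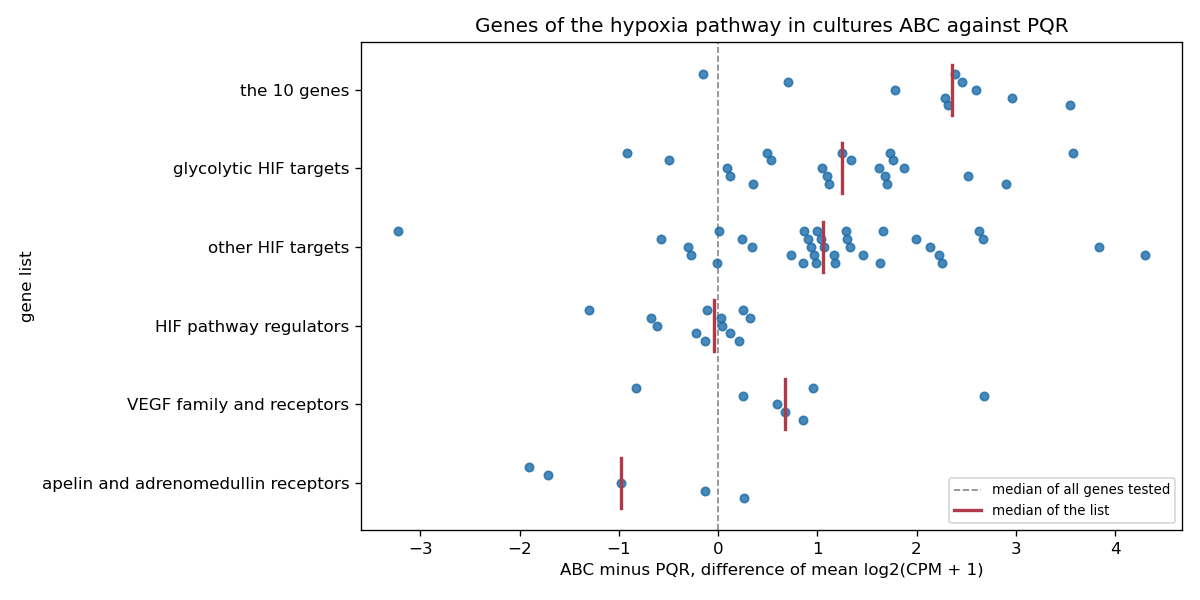
Difference of the mean log2(CPM + 1) between cultures ABC and PQR for each gene of 6 lists (points) with the median of each list (red line) and that of all genes tested (dashed line, -0.0017). The medians are 2.35 for the 10 genes, 1.25 for the glycolytic and 1.05 for the other targets, and -0.04 for the regulators.

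Between doses, no gene of these lists was called. In high dose vs. low dose the median log2 fold change was -0.16 for the glycolytic and -0.10 for the other targets. Of the glycolytic genes 5 of 21 were lower in all 4 letter sets (Pfkm, Pgk1, Pgam1, Ldha and Ppp1r3c) and 0 were higher. Of the other targets 10 of 34 were lower in all 4 sets and 1, Angptl4, was higher. Over all genes tested 11.1% were lower and 11.7% higher in all 4 sets. Stc2, which encodes the secreted glycoprotein stanniocalcin 2, was the one gene of these lists without overlap between the high and low dose, where 0.522% of all genes were lower. It was 17.1, 10.5, 13.4 and 14.5 CPM in C, I, O and R and 17.5, 26.0, 35.7 and 18.9 CPM in B, H, N and Q. Its log2 fold change was -0.87 (SE 0.32, unadjusted p = 0.0203 and adjusted p = 1.0 by edgeR), and the highest high dose culture lay just under the lowest low dose culture. In that comparison 1.17% of all genes had an unadjusted p under 0.05. In high dose vs. untreated the medians were -0.09 for the glycolytic and -0.07 for the other targets. There Angptl4 was the one gene of these lists with an unadjusted p under 0.05, where 1.19% of all genes had. Its log2 fold change was 1.18 (SE 0.43, unadjusted p = 0.0204 by edgeR).

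The receptors for the secreted factors split by letter set. Of 7 genes of the VEGF family and its receptors, 4 were above without overlap in ABC against PQR (Vegfc, Pgf, Kdr and Nrp2) and Vegfb was below, while 4 of the 5 receptor genes for apelin and adrenomedullin were below (Aplnr, Calcrl, Ramp1 and Ramp2), where 33.4% of all genes were above and 33.6% below. Kdr and Flt1, the tyrosine kinase receptors of Vegfa, were 1.73 to 12.7 CPM and 0.059 to 15.4 CPM over the 12 cultures, with Flt1 at 1 count in some cultures. Kdr was 5.52 ± 4.94, 3.11 ± 1.78 and 3.61 ± 1.13 CPM (SD, n = 4) in the untreated, low dose and high dose conditions. The co-receptors Nrp1 and Nrp2, which also bind semaphorins in neurons, were 18.1 ± 17.1, 15.2 ± 10.8 and 12.9 ± 6.57 CPM and 43.0 ± 40.0, 23.9 ± 12.1 and 29.2 ± 6.52 CPM. Culture G was at 12.7, 43.0 and 102.4 CPM for Kdr, Nrp1 and Nrp2, and without it the untreated means were 3.13 ± 1.44, 9.75 ± 4.73 and 23.3 ± 7.67 CPM (SD, n = 3). None of the 7 genes of the VEGF family and its receptors that were tested was called in any comparison, and 0 of the 7 had the same direction in all 4 letter sets.

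Aplnr, the apelin receptor, had 0 to 54 counts per culture. Calcrl, the receptor that binds adrenomedullin together with a RAMP partner, was 5.95 CPM in ABC and 21.5 CPM in PQR on average, and Ramp1 was 5.60 and 23.8 CPM, opposite to the order of Vegfa. Ramp2, the partner that makes Calcrl selective for adrenomedullin, was 16.5 ± 1.86, 16.9 ± 1.21 and 16.6 ± 2.91 CPM in the 3 conditions. Ramp3 was 1.41 ± 0.649, 1.27 ± 0.273 and 0.830 ± 0.195 CPM, from 10 to 36 counts per culture. It was lower at the high than at the low dose in all 4 sets. Its log2 fold change was -0.64 (SE 0.27, unadjusted p = 0.0399 and adjusted p = 1.0 by edgeR). In that comparison 1.17% of all genes had an unadjusted p under 0.05. Calcrl went the other way and was higher at the high dose in all 4 sets (log2 fold change 0.32, SE 0.53). Over all genes tested, 11.1% were lower and 11.7% higher in all 4 sets. None of the 5 receptor genes tested was called.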

How the data were processed

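The authors extracted RNA from 12 cultures, enriched poly(A) RNA, mapped reads with STAR to rn6, a build of the rat genome, and made gene counts with featureCounts. The authors deposited raw counts per gene, without normalization or removal of unwanted variation. Whether strand was used in counting is not given in the sources used here. Doses were read from the labels, and 0 columns belonged to no culture.

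In R 4.3.3, edgeR 4.0.16 (with limma 3.58.1) scaled the counts by TMM, and filterByExpr kept 12271 of 17337 genes, of which 2226 had no count. The study names RUVseq without its procedure or number of factors. Here 1 factor by the RUVs formula, rewritten in R, entered a quasi-likelihood test on all 12 cultures. That factor held 41.0% of the spread within conditions. Its value was -2.955 in culture G and -0.49 to 0.70 in the other cultures, so it mainly set G apart. The letter sets were not in that fit. A gene was called at an adjusted p (Benjamini-Hochberg over all genes kept) under 0.05 and a log2 fold change beyond 0.5 up or down. The fit was first tested on simulated counts with known changes. Vegfa was also compared by exact permutation over 70 arrangements of the cultures, which ignored the letter sets. Differences within letter sets are on log2(CPM + 1). Counting error falls with depth, and 3 counts were taken as the floor.

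The members and gene lists were chosen with earlier results of these data known. All 10 genes are named, with list genes that were called or did not overlap, the HIF alpha subunits, Vhl, prolyl hydroxylases and receptors. For Vegfa the 5 most similar genes are given with and without the letter set means. Alternatives were no factor, 2 or 4 factors, a replicate block by letter sets with and without G or GHI, the likelihood ratio test, DESeq2 1.42.0, its size factors, no filter, a minimum of 10 counts per culture, a fit of the 8 cultures compared alone, and each culture left out. The test across letter sets was added after the data were seen. Current symbols were looked up in a RefSeq table of another assembly, so no coordinates are given, and no sequence of these genes was used here.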

Additional observations from a re-analysis of the deposited data

Results flagged for a closer look

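In 30 groups of 4 cultures (10 genes at 3 doses), 3 held a culture far from the others. Chance flags about 1 in 20 groups if the 4 cultures of a group are alike. That rate does not apply here, since each group holds 1 culture from each letter set and most of the 10 genes vary together. Hk2 was 129 CPM in untreated culture A, against 8.40 to 25.9 CPM in G, M and P. Hk2 was also 104.8 CPM in high dose culture C, against 9.01 to 24.2 CPM in I, O and R. Pdk1 was 111.1 CPM in untreated culture A, against 17.2 to 32.4 CPM in the other untreated cultures. All 3 values come from the set ABC, in which culture B was highest of the low dose for both genes.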

How the results depend on the processing

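With 4 cultures per dose, the SE of most of these genes exceeded their fold changes, and none of the 10 genes was called in the reported fit. With culture G included, the letter set took a median of 79.8% of the sum of squares over the 10 genes, but 16.2% for Adm and 20.5% for Apln. Of 717 values of single genes under 24 alternatives, 620 kept their direction without a new call, 96 changed direction and 1, Vegfa in high dose vs. untreated with 4 factors (-0.56), was called. Of the 30 gene values, 6 never changed direction under any alternative, those of Adm and Ankrd37 in low dose vs. untreated, Apln in high dose vs. untreated, and Apln, Adm and Egln3 in high dose vs. low dose. The causes of the changes were not tested.

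No gene was called in low dose vs. untreated under any alternative. Against 0 genes, high dose vs. untreated gave 1 gene with 2 factors, 39 with 4 factors, 15 with the replicate block and without culture G, 2 with the block and without set GHI, 2 by the likelihood ratio test and 3 by DESeq2. High dose vs. low dose gave 1 gene with 2 factors, 113 with 4 factors, 14 with the block and without G, 5 with the block and without GHI and 1 by DESeq2. Without set GHI, 1 of the 10 genes (Adm) was lower without overlap in each comparison of the high dose, and 6 were lower in all remaining sets in high dose vs. untreated, against 0 with all sets. The log2 CPM difference of Vegfa in low dose vs. untreated was -0.10 without set GHI.

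Directions turned as follows, in log2 fold change. In low dose vs. untreated Vegfa was -0.10 with 2 factors, -0.068 with 4 factors, -0.076 with the replicate block and without G, -0.10 with the block and without GHI, and -0.11 with at least 10 counts. Apln was 0.14 without a factor and 0.14 with the block, Slc2a1 0.089 and 0.26, Bnip3 -0.0066 with the block and without GHI, and Hk2 0.0050 with the block, 0.034 with the block and without G, and 0.058 with the block and without GHI. In high dose vs. untreated Bnip3 was -0.13 with 2 factors, -0.20 with 4 factors, -0.20 and -0.17 with the block and without G or GHI, -0.16 with at least 10 counts and -0.056 with the 8 cultures compared. Ndrg1 was 0.026 with the block and 0.0028 with the block and without G. Ankrd37 was -0.20 with 4 factors, -0.16 with the block and without G and -0.11 with the block and without GHI. With the block Egln3 was 0.089 and Pdk1 0.19, and without a factor Pdk1 was 0.073. In high dose vs. low dose Ndrg1 was -0.0090 without a factor, -0.055 with 2 factors, -0.050 with 4 factors, -0.042 with the block and without GHI, -0.0010 with at least 10 counts and -0.079 with the 8 cultures compared.

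Leaving out 1 culture at a time moved the values of 24 of the 30 across 0. In low dose vs. untreated they ran from -0.44 to 1.06 for Vegfa, -0.26 to 0.32 for Apln, -0.37 to 0.88 for Slc2a1, -0.17 to 1.18 for Bnip3, -0.78 to 1.10 for Ndrg1, -0.93 to 1.36 for Hk2, -0.26 to 1.12 for Egln3 and -0.31 to 1.29 for Pdk1. In high dose vs. untreated they ran from -0.94 to 0.60 for Vegfa, -0.10 to 0.016 for Adm, -0.70 to 0.55 for Slc2a1, -0.42 to 0.99 for Bnip3, -0.77 to 1.04 for Ndrg1, -1.32 to 1.33 for Hk2, -0.19 to 1.32 for Ankrd37, -0.65 to 0.79 for Egln3 and -0.64 to 1.07 for Pdk1. In high dose vs. low dose they ran from -1.05 to 0.11 for Vegfa, -0.69 to 0.045 for Slc2a1, -0.66 to 0.073 for Bnip3, -0.62 to 0.73 for Ndrg1, -1.08 to 0.66 for Hk2, -0.65 to 0.072 for Ankrd37 and -0.84 to 0.26 for Pdk1. The highest value against untreated came without culture A for all of these but Apln and Adm. The log2 CPM difference of Vegfa ran from -0.13 to 0.88 in low dose vs. untreated, -0.55 to 0.46 in high dose vs. untreated and -0.90 to 0.033 in high dose vs. low dose.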

Other observations

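Over the 12 cultures, the gene whose log2(CPM + 1) was most like that of Vegfa was Ccng2, a cyclin that is itself induced by hypoxia (r = 0.985), followed by Egln3 and Pdk1 (0.977 each), Ube2g1 (0.975) and Pgam1 (0.973). Slc2a1 ranked 8 and Bnip3 31 of all other genes kept, while r was 0.65 for Apln and 0.07 for Adm. The cultures of a letter set lie close together, so they are not 12 independent points. After the mean of each letter set was subtracted, the 5 nearest genes were Dennd6b (0.980), Cacna2d2 (0.972), Dgkz (0.971), Ftcd (0.970) and Sdha (0.967). Apln (0.940) and Slc2a1 (0.936) then ranked 35 and 40, Adm came to 0.900, and Ndrg1 and Hk2 were at 0.05 and 0.03. Culture G, low in Vegfa, weighs on this second measure. Without culture G and with the set means kept, the nearest was again Ccng2 (0.984), then Rad18, Rprd1a, Rps27 and Fam162a, with Bnip3 at rank 6.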
